A study of Mus musculus with 48 samples.

Results

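AP-1 transcription factor genes were followed through a 20 h time course of mouse liver RNA sequencing. The 7 genes were the rows of the deposited count table with the symbols Fos, Fosb, Fosl2, Jun, Junb, Jund and Atf3, out of 22354 genes in the table. 6 of the 7 passed the filter on low counts that left 13646 genes for testing, and Fosb did not. The genes were chosen by their KO minus WT difference in these libraries, so that difference is described here without a test.

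The mice were C57BL/6, 4 to 6 months old and male per the design text. One genotype, called KO here, carried aP2-Cre, a Cre recombinase driven by the aP2 promoter, on a Bmal1 fx/fx (floxed) background, and the other, called WT, were littermate controls. The sources used here do not say whether the controls carried floxed alleles. Bmal1, listed under the symbol Arntl, is the activating partner of CLOCK in the circadian clock. The aP2 promoter (of the gene Fabp4) is used to drive Cre in adipocytes, so liver levels of Arntl do not check the deletion in fat. All mice spent 36 h in constant darkness and were killed in darkness at 0, 4, 8, 12, 16 or 20 h from the first collection. Of the 12 groups, 10 had 4 livers each. By the labels the 16 h groups had 5 WT and 3 KO livers, although the design text names 4 mice for every group. That made 25 WT and 23 KO libraries.

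Library totals without albumin lay between 12841969 and 13009797 counts. The labels name liver as the tissue and adipocyte as the cell type. Hepatocyte markers summed to between 33682 and 75815 CPM over all libraries (CPM are counts scaled to a common library total, with TMM factors), and adipocyte markers to between 186 and 3333 CPM. Car3 had most of the latter (610 CPM in WT and 1035 in KO) and Plin4 117 and 78.0 CPM, while 4 of the 10 adipocyte markers had a mean under 0.1 CPM. Xist had 3029 to 13969 counts in each library, while Eif2s3y, Kdm5d and Uty, which lie on the Y chromosome, had 1 count each over all 48, which goes against the stated sex. The WT library of replicate 3 at 0 h held most Saa1 (111674 counts against a median of 593) and most Star, an adrenal gene (336 against 25). The KO library of replicate 2 at 0 h held most of the pancreatic gene Cela2a (907 counts against 4). The KO library of replicate 2 at 16 h held most Lepr (5936 counts against 197.5).

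AP-1 is a dimer of basic leucine zipper proteins. JUN proteins pair with each other or with FOS proteins, while FOS proteins need a JUN partner to bind DNA, and ATF3 can pair with JUN proteins. Fos, Fosb, Jun, Junb and Atf3 are immediate early genes, which growth factors, cytokines and stress switch on within minutes and whose transcripts are short-lived. In liver they are known for their response to partial hepatectomy, feeding, injury and handling of the tissue.

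The windows before the start sites of Fos, Jun and Junb are printed because these 3 genes had the lowest KO levels relative to WT. Each is 250 bases ending at the base before the RefSeq start in GRCm38.p6, read on the gene's strand, and capitals mark the motif matches. Fos is at chr12:85473640-85473889 on the plus strand, Jun at chr4:95052223-95052472 on the minus strand and Junb at chr8:84978749-84978998 on the minus strand.
Fos: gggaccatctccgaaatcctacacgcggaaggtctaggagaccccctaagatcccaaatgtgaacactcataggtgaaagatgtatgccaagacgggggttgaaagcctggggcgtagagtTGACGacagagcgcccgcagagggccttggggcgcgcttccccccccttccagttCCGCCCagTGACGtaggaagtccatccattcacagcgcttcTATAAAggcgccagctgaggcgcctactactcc
Jun: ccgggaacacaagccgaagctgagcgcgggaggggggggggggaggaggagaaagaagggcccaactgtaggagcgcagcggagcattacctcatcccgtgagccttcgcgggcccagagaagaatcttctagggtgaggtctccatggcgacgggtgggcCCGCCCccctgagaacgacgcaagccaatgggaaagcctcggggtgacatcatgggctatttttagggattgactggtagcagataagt
Junb: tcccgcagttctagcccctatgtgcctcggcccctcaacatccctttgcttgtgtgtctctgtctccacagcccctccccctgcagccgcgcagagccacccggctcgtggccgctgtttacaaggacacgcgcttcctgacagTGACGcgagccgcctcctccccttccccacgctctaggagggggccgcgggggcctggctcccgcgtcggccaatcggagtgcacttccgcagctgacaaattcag
Searched on both strands were the cyclic AMP response element TGACGTCA, its shorter core TGACG, the AP-1 site TGANTCA, the E-box CACGTG, the GC box GGGCGG, the CArG box of serum response factor and the TATA box TATAAA. The Fos window held TGACG from 129 to 125 and from 66 to 62 bases before the start, a GC box on the minus strand from 74 to 69 and a TATA box from 33 to 28. Jun held a GC box on the minus strand from 89 to 84, and Junb held TGACG from 106 to 102. Among the windows of all 32851 RefSeq promoters, 17.8% held TGACG, 32.7% a GC box and 12.4% the TATA box. The other motifs were found in 1.55% (TGACGTCA), 6.75% (AP-1 site), 6.02% (E-box) and 1.47% (CArG box) of windows and had no match in these 3. A missing match says only that those letters are not in the window.

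In mm9, the build of the table, Fos lies at chr12:86814840-86818223, Fosb at chr7:19888070-19895394 and Fosl2 at chr5:32438845-32460204. Jun lies at chr4:94715725-94718913, Junb at chr8:87500811-87502617, Jund at chr8:73221638-73224515 and Atf3 at chr1:192994175-193007219. Per kilobase of GENCODE M21 exon, Jund had the highest mean level over all libraries, 25.0 CPM per kb. Junb followed with 10.2, Jun with 7.11, Fosl2 with 1.23, Atf3 with 1.08, Fos with 0.942 and Fosb with 0.0232 CPM per kb. The JUN genes thus stood above all FOS genes and Atf3 on this scale. In the table Jun overlaps BC042782, which had 155 counts in all against 14007 for Jun, and Jund overlaps Gm11175, with 57 against 25759.

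Fos encodes the founding FOS protein. In livers collected at 0 h, Fos was at 3.02, 5.91, 7.42 and 14.3 CPM in WT and at 0.450, 0.992, 1.17 and 1.83 CPM in KO. At 4 h the WT livers held 1.07, 1.79, 3.13 and 4.09 CPM and the KO livers 0.156, 0.402, 0.541 and 0.657 CPM. At both times every KO liver was below every WT liver. Fos at 8 h was at 1.76, 2.02, 2.35 and 4.17 CPM in WT against 0.300, 0.355, 0.659 and 0.748 CPM in KO. For 12 h the values were 1.58, 2.00, 3.14 and 3.36 CPM in WT and 0.323, 0.600, 0.603 and 0.833 CPM in KO. These groups did not overlap either, whereas those at the last 2 times did. At 16 h WT livers held 0.586, 1.61, 1.74, 2.30 and 2.49 CPM and KO livers 0.408, 1.19 and 3.48 CPM. Fos at 20 h was at 1.07, 1.24, 6.29 and 8.46 CPM in WT and 0.461, 0.540, 0.676 and 2.13 CPM in KO. The WT livers at 20 h formed a low pair and a high pair.

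Counts behind these values were small. Fos had 2 to 181 counts per library with a median of 18, whose exact 95% Poisson interval is 10.7 to 28.4, and the interval of the lowest count is 0.242 to 7.22. Such intervals cover counting error only.

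Averaged over the 6 times, Fos had 3.55 CPM (WT) and 0.883 CPM (KO), a difference of −1.98 ± 0.26 (log2 KO minus WT, SE). The difference was −2.78 ± 0.60 at 0 h, −2.50 ± 0.66 at 4 h, −2.31 ± 0.65 at 8 h, −2.08 ± 0.64 at 12 h and −2.16 ± 0.60 at 20 h. At 16 h it was −0.06 ± 0.61, with the KO liver of replicate 2 above all WT livers of that time. Fos had non-overlapping groups at 4 of 6 times. Over all genes tested, every KO liver was below every WT liver in 1.77% of genes at 0 h, 3.98% at 4 h, 0.791% at 8 h, 1.9% at 12 h, 0.594% at 16 h and 0.476% at 20 h. The bulk RNA does not tell fewer cells with Fos transcripts from less transcript per cell, for any of the 7 genes.

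Fos varied with time in WT by edgeR's quasi-likelihood test (adjusted p = 0.0377) and fitted a 24 h rhythm in WT (adjusted p = 0.0280, amplitude 0.61 on the log2 scale from mean to peak, peak 0.513 h after the first collection). WT group means were 7.65 ± 4.77 CPM at 0 h (SD, n = 4), 4.26 ± 3.70 at 20 h, 2.58 ± 1.09 at 8 h, 2.52 ± 1.35 at 4 h, 2.52 ± 0.865 at 12 h and 1.75 ± 0.747 at 16 h (n = 5), from highest to lowest. Neighbours in that order overlapped in mean ± SD. Without the WT liver of replicate 1 at 0 h (14.3 CPM) the time effect had an adjusted p of 0.224 and the rhythm one of 0.160, so both calls were lost without that library. With the replicate number within a genotype as a block they were lost too (0.0849 and 0.0550). In KO neither test passed in edgeR's fit (adjusted p = 0.215 for time and 0.112 for the rhythm), and group means ran from 0.439 ± 0.216 CPM at 4 h to 1.69 ± 1.60 CPM at 16 h.

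**Figure D1:**
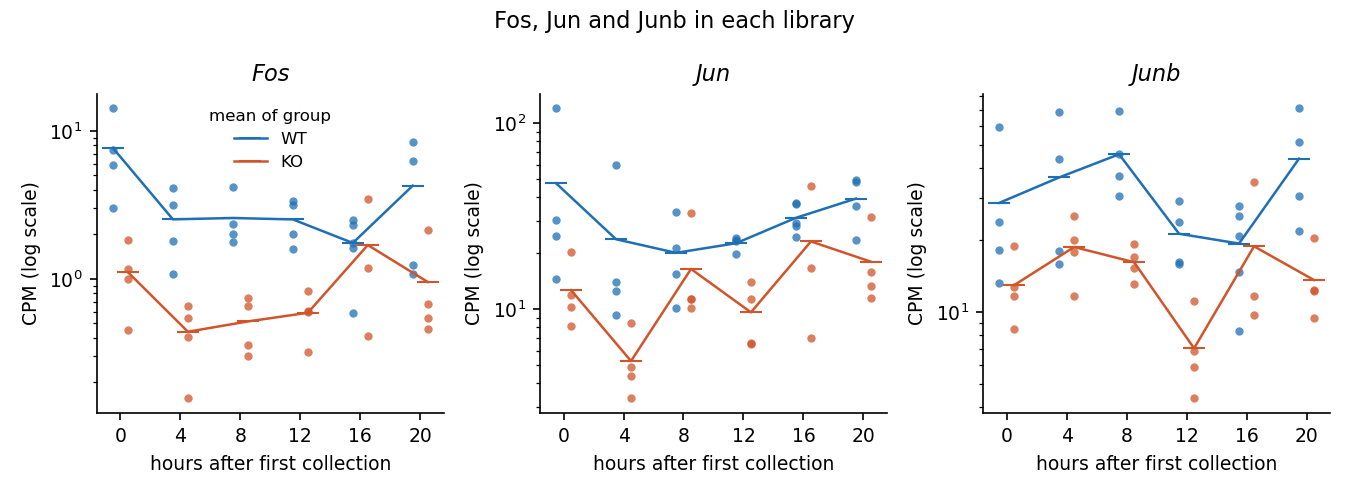
Normalised counts (CPM, log scale) of Fos, Jun and Junb against hours after the first collection. Points are single livers of WT (blue) and KO (orange), and lines join the group means. KO means lay below WT means at all 6 times for each gene, with the smallest gaps for Fos and Junb at 16 h.

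Fosb, a close relative of Fos, was near the limit of detection, with 88 counts in all and none in 18 of 48 libraries. A library at 0 counts allows up to 3 counts, or 0.209 to 0.261 CPM. 19 counts (1.50 CPM) came from the WT liver of replicate 1 at 0 h and 14 counts (1.16 CPM) from the KO liver of replicate 2 at 8 h. These livers also held the most Jun in their groups, at 121 and 33.0 CPM. No other library had more than 5 counts of Fosb, and all 4 KO livers at 4 h had none.

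Fosl2 encodes FRA2, a FOS relative whose transcript lasts longer after induction than that of Fos. At 0 h the WT livers held 14.6, 20.5, 24.7 and 26.2 CPM of Fosl2 and the KO livers 9.91, 11.4, 11.6 and 14.6 CPM. At 8 h they held 3.06, 5.99, 6.18 and 6.34 CPM in WT and 5.33, 5.49, 7.58 and 13.5 CPM in KO. The genotypes met at the edges at 0 h and their order by mean was the opposite at 8 h. At 4 h, WT livers had 5.09, 9.13, 11.6 and 13.0 CPM and KO livers 3.48, 3.86, 6.55 and 6.60 CPM. Values at 12 h were 7.86, 8.11, 10.7 and 11.6 CPM in WT and 5.58, 6.00, 7.34 and 8.25 CPM in KO. Both of these times had overlapping groups. At 16 h they were 10.6, 12.9, 14.7, 15.2 and 19.4 CPM in WT and 8.33, 12.2 and 38.3 CPM in KO. At 20 h Fosl2 was at 7.87, 15.2, 16.2 and 19.7 CPM in WT and at 13.1, 13.4, 14.4 and 26.0 CPM in KO.

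Fosl2 changed with collection time in both genotypes. The time effect had an adjusted p of 0.00231 in WT and 0.00116 in KO, and the 24 h rhythm 0.00187 in WT and 9.1e-04 in KO (edgeR). Its amplitude was 0.78 in WT and 0.80 in KO on the log2 scale, with peaks at 20.7 h and 18.9 h. All 4 of these calls were kept in each of the 56 alternative settings tried. The WT mean was highest at 0 h (21.5 ± 5.18 CPM, SD, n = 4) and lowest at 8 h (5.39 ± 1.56), and only the step from 12 h (9.59 ± 1.89) to 8 h was larger than the SDs of neighbours in the order. KO means were highest at 16 h (19.6 ± 16.3, n = 3) and lowest at 4 h (5.12 ± 1.68, n = 4), with all neighbours within their SDs. Over the 6 times the KO minus WT difference was −0.18 ± 0.14 on the log2 scale, lower in KO at 3 times and higher at 3.

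The JUN genes had lower mean CPM in KO at all 6 times, though with the GC slope of each library (below) in the fit Junb (0.36 ± 0.38) and Jund (0.23 ± 0.38) were above 0 at 16 h on the log2 KO minus WT scale. Jun, the main partner of Fos, was at 14.5, 24.8, 30.4 and 121 CPM in WT and 8.11, 10.3, 11.9 and 20.4 CPM in KO at 0 h. At 4 h Jun was at 9.27, 12.5, 14.0 and 59.6 CPM in WT and 3.32, 4.36, 4.91 and 8.50 CPM in KO, groups that did not overlap. In each of these WT groups 1 liver was far above the other 3. At 8 h the WT livers held 10.1, 15.5, 21.4 and 33.5 CPM of Jun and the KO livers 10.2, 11.3, 11.4 and 33.0 CPM. Jun at 12 h was at 19.9, 23.2, 23.5 and 24.1 CPM in WT and 6.50, 6.63, 11.4 and 14.0 CPM in KO. The 12 h groups were again apart, and their WT livers were the tightest group for Jun. At 16 h the values were 24.4, 27.9, 29.0, 36.8 and 37.2 CPM in WT and 7.02, 16.7 and 45.8 CPM in KO. For 20 h they were 23.7, 36.1, 48.3 and 49.5 CPM in WT and 11.5, 13.3, 15.8 and 31.6 CPM in KO.

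Over all times Jun averaged 30.8 CPM in WT and 14.2 CPM in KO, a log2 difference of −1.19 ± 0.23. The difference was largest at 4 h (−2.17 ± 0.57) and 0 h (−1.91 ± 0.56) and smallest at 8 h (−0.29 ± 0.54) and 16 h (−0.42 ± 0.56). Groups did not overlap at 2 of 6 times. At those times, 4 h and 12 h, 3.98% and 1.9% of all genes tested were apart in the same direction. No change of Jun with time passed in edgeR's test in either genotype (adjusted p = 0.366 in WT and 0.0985 in KO). DESeq2 called the KO time effect (adjusted p = 0.0370), as did edgeR without the KO liver of replicate 3 at 16 h (0.0318). These settings called 2238 and 2452 genes in all for time in KO, against 1328 in edgeR's fit of all libraries. Without the KO liver of replicate 2 at 8 h, the 24 h rhythm of Jun in KO passed (adjusted p = 0.0341 in place of 0.172).

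Junb, a JUN protein that often counters c-Jun at shared sites, stood at 13.2, 18.1, 23.8 and 58.9 CPM in WT and 8.50, 11.6, 12.7 and 18.9 CPM in KO at 0 h. At 4 h it was at 15.9, 17.9, 43.6 and 68.3 CPM in WT and 11.7, 17.8, 19.9 and 25.3 CPM in KO. Groups at both times overlapped. At 8 h WT livers held 30.6, 37.0, 45.6 and 68.9 CPM of Junb and KO livers 13.1, 15.2, 17.0 and 19.1 CPM. The 12 h values were 15.8, 16.2, 23.7 and 29.0 CPM in WT and 4.35, 5.88, 6.83 and 11.1 CPM in KO. At 20 h Junb was at 21.7, 30.6, 51.2 and 71.0 CPM in WT and 9.42, 12.2, 12.4 and 20.3 CPM in KO. Every KO liver was below every WT liver at 8, 12 and 20 h. The same held for 0.791%, 1.9% and 0.476% of all genes tested at those times. At 16 h the genotypes overlapped, with 8.29, 14.7, 20.7, 25.0 and 27.7 CPM in WT and 9.72, 11.7 and 35.0 CPM in KO. The 35.0 CPM came from the KO liver of replicate 2 and was above all WT livers of that time.

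Averaged over the times Junb had 32.4 CPM (WT) and 14.5 CPM (KO), and the log2 difference was −1.15 ± 0.19. The differences were −1.14 ± 0.45, −0.96 ± 0.45, −1.50 ± 0.45, −1.59 ± 0.47, −0.04 ± 0.46 and −1.68 ± 0.46 at 0, 4, 8, 12, 16 and 20 h. Junb did not pass for time in edgeR's fit (adjusted p = 0.138 in WT and 0.215 in KO). With the GC slope of each library, described below, as a covariate it passed in both, with adjusted p = 0.00114 in WT and 0.0179 in KO. That fit called more genes in all for time, 2522 in WT and 2174 in KO against 1167 and 1328 without the slope. WT also passed without the WT liver of replicate 1 at 0 h (0.0463). WT means of Junb were highest at 8 h (45.5 ± 16.7 CPM, SD, n = 4) and 20 h (43.6 ± 22.1) and lowest at 16 h (19.3 ± 7.86, n = 5), an order in which no neighbours differed beyond their SDs.

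Jund encodes the JUN protein that is made without induction and slows growth in many cells. It was the most abundant and the most variable of the genes. Jund ranged from 4.82 to 101 CPM among the 3 KO livers at 16 h, and from 5.18 to 93.9 CPM among the KO livers at 4 h. WT livers at 16 h held 9.96, 60.2, 73.2, 75.3 and 133 CPM. At 0 h they held 25.6, 28.4, 37.1 and 133 CPM in WT and 22.2, 23.8, 46.2 and 79.0 CPM in KO. In 9 of 12 groups the highest liver had over 3 times the Jund of the lowest. The tightest was KO at 12 h, with 9.19, 9.91, 11.9 and 13.7 CPM, each below the WT livers of that time at 13.8, 14.6, 48.4 and 80.9 CPM. Of all genes tested, 1.9% were apart in this direction at 12 h.

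Jund averaged 51.1 CPM in WT and 31.2 CPM in KO, a log2 difference of −0.76 ± 0.33 that moved to −0.31 ± 0.16 with the GC slope as a covariate. Neither time nor rhythm passed in edgeR's fit for Jund (adjusted p from 0.155 to 0.514 over both genotypes). Without the KO liver of replicate 1 at 4 h (93.9 CPM), time in KO passed (adjusted p = 0.0421). Leaving out that liver raised the genes called for time in KO from 1328 to 2616 in all.

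Atf3, a stress-induced gene whose protein pairs with JUN proteins, was low, at 8 to 117 counts per library. The WT livers at 0 h held 2.91, 4.75, 5.43 and 9.54 CPM of Atf3 and the KO livers 0.600, 1.56, 1.75 and 1.75 CPM. This was its single time with non-overlapping groups, and the log2 difference there was −1.99 ± 0.40. Of all genes tested, 1.77% were apart in this direction at 0 h. At 4 h Atf3 was at 0.972, 1.07, 1.72 and 2.22 CPM in WT and 0.773, 0.966, 1.64 and 1.73 CPM in KO. At 8 h the values were 0.894, 1.67, 1.90 and 3.06 CPM in WT and 1.63, 1.80, 1.98 and 5.40 CPM in KO. WT and KO overlapped at both times. At 12 h they were 0.749, 0.916, 1.57 and 1.97 CPM in WT and 1.08, 1.28, 1.36 and 1.53 CPM in KO. Livers at 16 h held 1.74, 1.84, 2.17, 2.23 and 3.14 CPM in WT and 2.30, 3.10 and 5.04 CPM in KO. At 20 h Atf3 stood at 1.43, 2.60, 2.63 and 3.46 CPM in WT and 1.88, 3.00, 3.16 and 3.47 CPM in KO. From 4 h on the log2 differences lay between −0.23 and 0.64, and the mean over all 6 times was −0.14 ± 0.17.

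Atf3 changed with time in WT (edgeR adjusted p = 9.9e-04) and in KO (0.0256). The WT call was kept in all 56 alternatives, with adjusted p up to 0.0295. The KO call was lost in 6, among them without the KO liver of replicate 2 at 16 h (0.0670). Its 24 h rhythm passed in WT (adjusted p = 0.00903, amplitude 0.70, peak at 22.3 h) and not in KO (0.220, amplitude 0.46). Without the WT liver of replicate 2 at 0 h the WT rhythm had an adjusted p of 0.0630, and without the KO liver of replicate 2 at 8 h the KO rhythm passed (0.0436). The WT mean was highest at 0 h (5.66 ± 2.80 CPM, SD, n = 4) and lowest at 12 h (1.30 ± 0.568), and the KO mean highest at 16 h (3.48 ± 1.41, n = 3) and lowest at 4 h (1.28 ± 0.477). The rhythm in WT and its miss in KO do not show a difference, and the test of that difference did not pass (adjusted p = 1.00, unadjusted 0.00519).

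**Figure D2:**
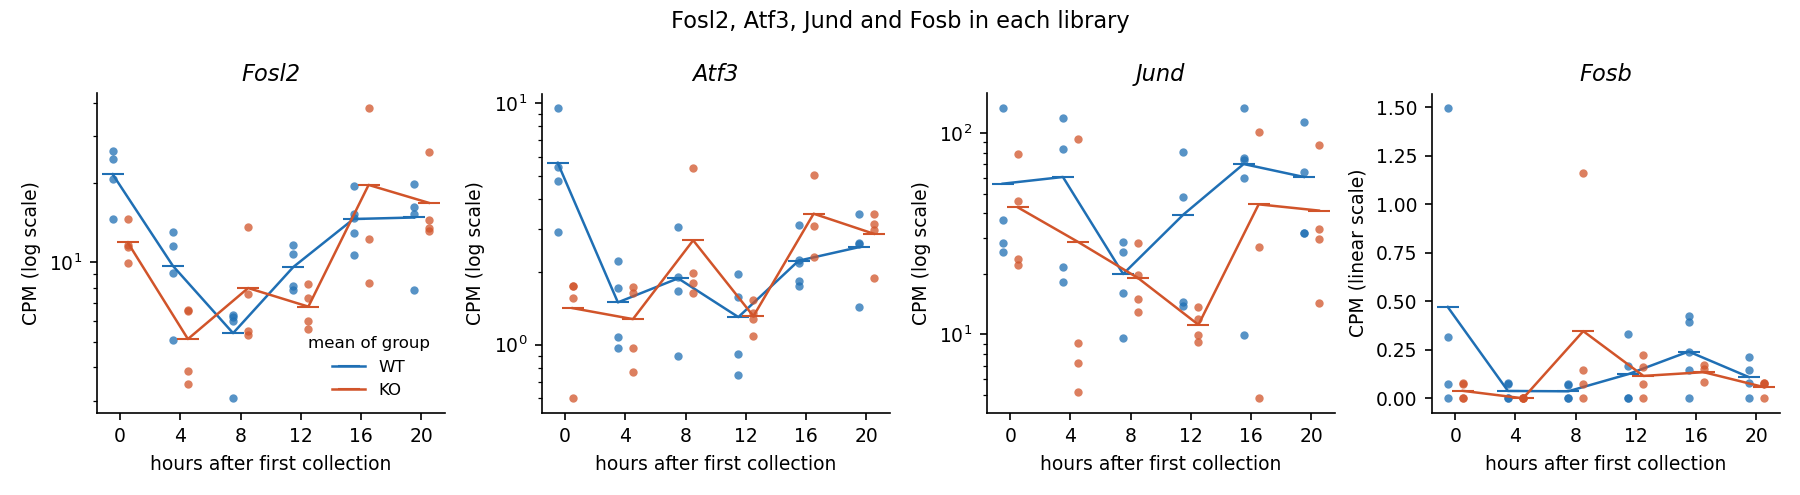
Normalised counts (CPM) of Fosl2, Atf3 and Jund on log scales and of Fosb on a linear scale, against hours after the first collection. Points are single livers and lines join group means of WT (blue) and KO (orange). The Fosl2 mean was lowest at 8 h and highest at 0 h in WT. In KO it was lowest at 4 h and highest at 16 h, where 1 liver held 38.3 CPM. Atf3 in WT was highest at 0 h.

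Counted over the 6 tested genes, 3 changed with time in WT (Fos, Fosl2 and Atf3, without Fos under the replicate block) and 2 in KO (Fosl2 and Atf3), where 8.55% and 9.73% of all genes tested did so. A 24 h rhythm passed for 3 in WT (the same 3, and again without Fos under the block) and for 1 in KO (Fosl2), where 16.3% and 17% of all genes did. None passed for a genotype by time interaction in edgeR's fit or in DESeq2's, nor for a rhythm difference in either, and 0.00733% of all genes did for each in edgeR's. At an unadjusted p under 0.05 the interaction had 3 and the rhythm difference 2. The share of all genes at that unadjusted threshold was not counted, so nothing is read from these 2 counts. Lowest was the interaction of Atf3 in edgeR's fit (unadjusted p = 0.000445, adjusted p = 0.491), and DESeq2 gave it an adjusted p of 0.0534. The contrast of KO minus WT over the times called 0.777% of all genes lower in KO and 0.623% higher. The members were chosen by that difference, so their calls in it are not given.

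**Figure D3:**
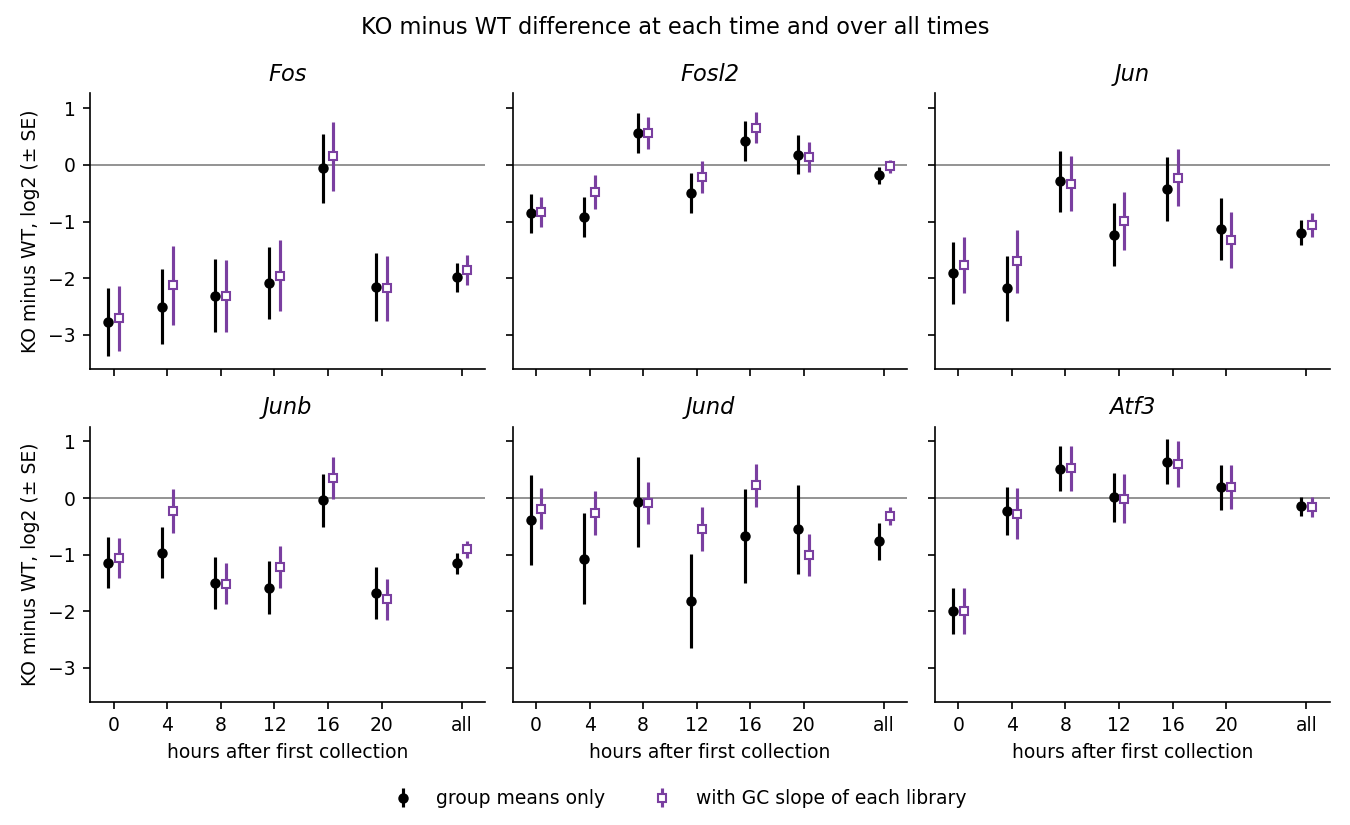
Log2 difference KO minus WT (± SE) of 6 genes at each collection time and over all times (all). Black points come from the 12 group means alone, and purple squares from the fit that also holds the GC slope of each library. Fos lay near −2 or below at 5 times and near 0 at 16 h in both fits, Atf3 was apart from 0 by several SEs at 0 h alone, and Jund moved most between the fits, at 12 h from −1.82 to −0.55.

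Libraries differed in how counts depended on base composition. For each library the log2 deviation of every gene from its mean over libraries was regressed on the GC content of its longest transcript. That content was known for 97.6% of tested genes. The slope ran from −0.64 to 0.56 log2 units per 10 points of GC in WT (median 0.06) and from −0.77 to 0.59 in KO (median −0.11). Group means at 4 h were 0.20 ± 0.25 in WT and −0.33 ± 0.56 in KO (SD, n = 4 each), and at 8 h −0.25 ± 0.26 and −0.23 ± 0.12. The longest transcript of Jund has 67.1% GC and that of Junb 62.6%, the 99.9th and 99.1st percentiles of tested genes, whose median is 49.7%.

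Deviations of Jund from its group mean followed the slope over the 48 libraries with a Pearson r of 0.90 (Spearman 0.91). The r was 0.64 for Fosl2, 0.59 for Junb, 0.43 for Jun, 0.22 for Fos and −0.09 for Atf3. All libraries of these correlations also enter the slope, so they are descriptions with no test. 1089 genes followed Jund with an r over 0.8, and the 100 most alike had a median GC content of 59.0%. With the slope as a covariate, the KO minus WT difference over times was −1.86 ± 0.26 for Fos, −1.06 ± 0.21 for Jun, −0.91 ± 0.16 for Junb, −0.03 ± 0.12 for Fosl2 and −0.16 ± 0.17 for Atf3. Without the slope these differences were −1.98 ± 0.26, −1.19 ± 0.23, −1.15 ± 0.19, −0.18 ± 0.14 and −0.14 ± 0.17, in the same order. At 4 h Junb moved from −0.96 to −0.22 ± 0.39.

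**Figure D4:**
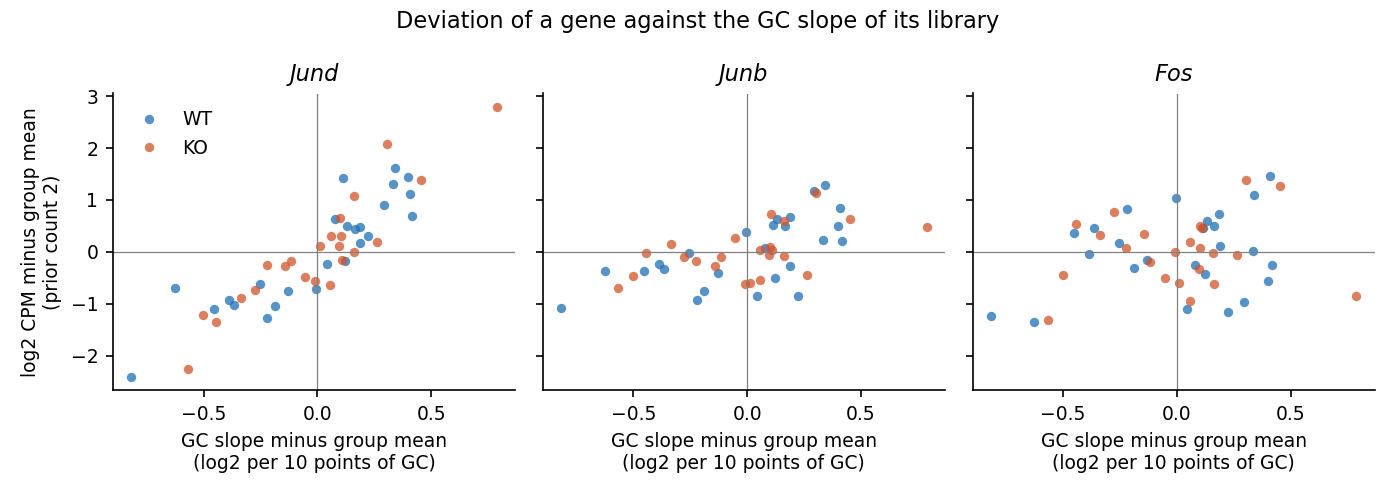
Log2 CPM (prior count 2) of Jund, Junb and Fos minus the mean of the group, against the GC slope of the library minus the mean of its group, in log2 units per 10 points of GC. Each point is 1 of 48 livers, WT blue and KO orange. Jund lay along a line (r = 0.90), Junb followed it less closely (0.59) and Fos was scattered (0.22).

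Between mice of the same genotype and time, 14 of the 21 pairs of members had correlated deviations, and 3 did once the GC slope was removed. Such correlation was common over the 13646 tested genes: r was over 0.5 with 3494 genes for Jund, 2268 for Fosl2, 1843 for Junb, 447 for Jun, 28 for Atf3 and 6 for Fos. The share of all pairs of genes that would pass the permutation test used here was not counted. The 14 and the 3 are therefore not set against other genes. Fos had a within-group SD of 0.82 on the log2 scale (94.2nd percentile of genes), Jun 0.77, Junb 0.66, Atf3 0.54, Fosl2 0.50 and Jund 1.21 (99.2nd percentile). The 14 pairs passed after adjustment over the 21 (permutation within groups, two-sided, 100000 resamples, n = 48). They include Fosb with Fosl2, Jun, Junb and Jund, although Fosb failed the filter, with 88 counts in all and none in 18 libraries. The highest was Junb with Jund (r = 0.73, Spearman's rho 0.73, adjusted permutation p = 0.000105, r = 0.71 without the 2 farthest libraries, 0.77 in WT and 0.71 in KO). Jun with Jund had r = 0.69 (rho 0.64, adjusted permutation p = 0.000105, 0.64 without 2 libraries, 0.59 in WT and 0.79 in KO). The unadjusted p of both, 1e-05, is the smallest these permutations can give.

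Jun with Junb had r = 0.60 (rho 0.57, adjusted permutation p = 0.00386, 0.51 without 2 libraries). Fos correlated best with Junb (r = 0.48, rho 0.44, adjusted permutation p = 0.0210), and r was 0.35 without the 2 farthest libraries. Fosl2 with Jund had r = 0.65 and with Jun 0.57. The pair of Fosb and Jun rested on the 2 libraries rich in Fosb, since r went from 0.41 to 0.05 without the 2 farthest. Atf3 correlated with Jun (r = 0.40, rho 0.37, adjusted permutation p = 0.0377) and with no other member, its r with Junb being −0.05 and with Fos 0.15.

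With the GC slope removed, 3 pairs remained past the threshold, each within the 14: Jun with Jund (r = 0.75, adjusted permutation p = 0.000210), Junb with Jund (0.57, 0.0285) and Jun with Atf3 (0.49, 0.0299). Fos with Junb then had r = 0.45 (adjusted permutation p = 0.0607) and Fosl2 with Jund 0.23. By ranks 8 pairs passed, and without the 16 h livers of both genotypes 6 did. The KO liver of replicate 2 at 16 h was the highest of its group for all 6 tested genes.

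**Figure D5:**
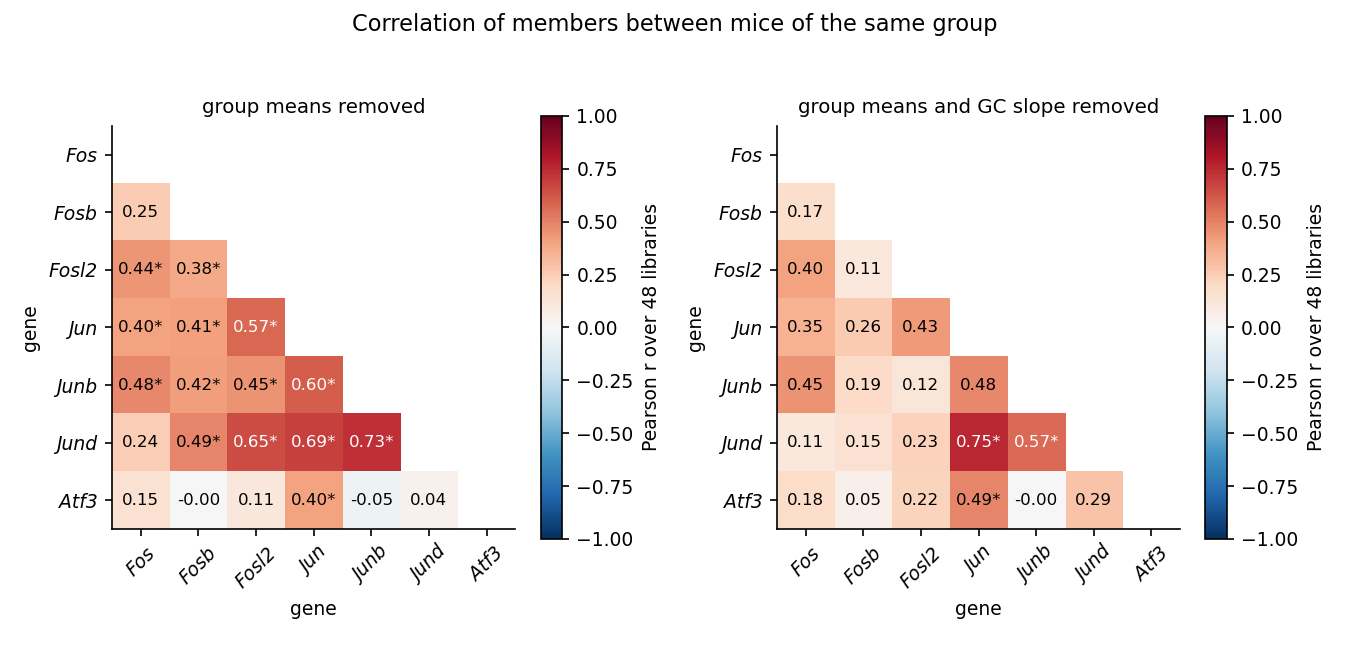
Pearson r between deviations from group means for the 21 pairs of genes over 48 livers, on the left with group means removed and on the right with the GC slope of each library removed too. An asterisk marks an adjusted permutation p under 0.05. On the left 14 pairs carry it, and on the right 3, of which Jun with Jund has the highest r (0.75).

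Among 10847 genes averaging 1 CPM or more, those whose deviations were most like Fos included Egr1 (r = 0.58), Btg2 (0.56), Nr4a1 (0.54), Junb (0.48), Arhgap10 (0.47), Zfp385b (0.46), Gne (0.46), Rab6b (0.46) and Sdc4 (0.45). Egr1, Btg2 and Nr4a1 are immediate early genes. Jun was most like Plk3 (0.80), Leng9 (0.73) and Dusp1 (0.71), and Junb like Ier2 (0.85), Zfp36 (0.78) and Erf (0.76). Fosl2 was most like Ablim3 (0.81), St3gal1 (0.80) and Sufu (0.80), and Atf3 like Apoa5 (0.60), Gde1 (0.59) and Bag5 (0.58). Jund had the closest likes, Gsk3a (0.96), Akt1s1 (0.95) and Adrm1 (0.95), whose longest transcripts hold 59.8%, 60.7% and 55.4% GC. Libraries and their GC slope are shared by all these points.

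Genes around AP-1 were read from lists written with earlier results of these data known. Their adjusted p is that of edgeR's test over all genes, of which 1.4% passed in either direction. Over all genes tested the median log2 difference was −0.005, and 51.1% were below 0. Among 24 other immediate early genes, 20 were tested, 4 fell in KO and none rose, and the median log2 difference was −0.38 with 18 of 20 below 0. Zfp36, which makes an mRNA decay factor, fell by 1.04 ± 0.21 on the log2 scale (110 CPM in WT, 52.3 in KO, adjusted p = 0.00546). Csrnp1 fell by 1.02 ± 0.21 (adjusted p = 0.00534), Btg2, an antiproliferative gene, by 0.82 ± 0.19 (0.0174) and Gadd45g, a growth arrest gene named because the count is small, by 1.34 ± 0.34 (0.0298).

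Of 9 tested MAP kinase phosphatases, which switch off the kinases that act on AP-1, 1 fell and none rose (median −0.17). It was Dusp1, with 78.1 CPM in livers of WT and 25.9 in KO (−1.64 ± 0.18, adjusted p = 1.7e-07). Dusp16 (0.14) and Dusp2 (−0.39) came next and did not pass. None of 31 MAP kinases and their activating kinases passed (median −0.05), the lowest p being that of Map2k6 (−0.63 ± 0.19, adjusted p = 0.0915), nor any of 13 SRF, ETS and CREB factors (median −0.06), led by Crem (0.32 ± 0.11, adjusted p = 0.131) and Srf (−0.40 ± 0.18, 0.257). The 22 tested rows of other AP-1 and related bZIP factors had none (median −0.09), with Cebpd at −0.59 ± 0.18 (adjusted p = 0.0817) and Crem as above. Atf7 is repeated among these rows, and Fosl1, though listed, was not tested. The 7 genes of JUN and FOS turnover had none and were all above 0 (median 0.08). Of 25 tested genes described as AP-1 targets, 1 fell and none rose (median −0.15). Plau, a plasminogen activator (0.49 ± 0.17, adjusted p = 0.140), and the chemokine gene Cxcl1 (−0.52 ± 0.19, 0.149) did not pass.

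Of the marker genes of other cells, 1 passed this test. None of 13 Kupffer cell and macrophage, 10 endothelial, 11 stellate cell and fibroblast, 6 bile duct, 5 adipocyte or 10 hepatocyte markers passed, nor did any of 19 acute phase genes. All 11 tested neutrophil markers were below 0 (median −0.79), as were 51.1% of all genes tested, and none of these markers passed. The summed level of this list ran from 11.4 to 1784 CPM in WT and from 14.3 to 1777 CPM in KO. One of 11 lymphocyte markers fell, Ighm (−1.63 ± 0.44, adjusted p = 0.0488), while the summed level of the list had nearly equal medians (29.1 CPM in WT and 30.7 in KO), with a highest library of 1260 CPM in WT and 47.2 in KO. No marker in these lists was at 0 in all libraries. Their part in the values of the AP-1 genes was not tested. Without the 3 libraries rich in Star, Cela2a or Lepr, the KO minus WT difference was −2.23 for Fos, −1.39 for Jun and −1.30 for Junb, and without the 3 libraries with most Saa1 it was −2.12, −1.31 and −1.20.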

How the data were processed

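Whole-number read counts per gene in 48 liver libraries, 1 mouse each per the labels' protocols, were deposited by the authors in 1 table. The tools were CASAVA and STAR 2.4.1d, on mm9, per the submitters' processing notes. How reads were counted, whether by strand and on which annotation is not stated in the sources used, so overlapping genes are uncertain, and the near-equal totals may come from resampling or scaling of which the sources say nothing. The deposited table is named as one of sense counts, while the TruSeq kit of the protocol is not a stranded one. Albumin, the single gene the table marks as high, was left out. No column of another sample was in the table.

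The counts were tested with edgeR 4.0.16 under R 4.3.3 (TMM scaling, filterByExpr with a minimum count of 10 and a total of 15, 13646 genes tested). A quasi-likelihood fit of 12 group means gave the genotype difference over times and at each time, the time effects and the interaction. A fit with a cosine and a sine of 24 h per genotype gave the rhythm tests. The 6 times span 20 h and none recurs on another day. The fit therefore cannot tell a repeating rhythm from a single rise and fall. P-values were Benjamini-Hochberg adjusted over all genes, with a threshold of 0.05. Log2 CPM for amplitudes and correlations used a prior count of 2. DESeq2 1.42.0 was an alternative. The tests were tried on simulated counts.

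The members, lists and comparisons were chosen with earlier results of these data known. Genes were named by rule: all 7 members, up to 3 of each list by lowest p, the 10 genes most like Fos and the 3 most like each other member (mean of at least 1 CPM). The values of some genes under this rule are not reported here. The GC slope was added as an alternative after the data were seen. Of 23 couples of WT and KO mice matched by replicate number and time, 13 correlated above 0.1 over 2000 genes (−0.361 to 0.542), among them all 4 couples at 4 h (0.231 to 0.460). As the rest did so in part, a block stayed an alternative. For the genotype difference and the interaction the block was the couple of the same time and replicate number. For the time and rhythm tests it was the replicate number within a genotype, which joins mice killed at different times. No libraries of a group agreed within sampling noise (lowest chi-square per degree of freedom 15.9 over 73 pairs). Promoter windows and motifs came from RefSeq, GRCm38.p6, and no coordinates were moved between builds. Exon length (merged exons) and GC content (longest transcript) came from GENCODE M21, matched by gene identifier.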

Additional observations from a re-analysis of the deposited data

Results flagged for a closer look

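Dixon's ratio was taken for the highest and the lowest liver in 77 combinations of a gene and a group of 4 or 5, on log2 CPM, and 6 values stood apart from the rest of their group. Chance alone gives such a value in about 1 in 20 groups. The 77 include Fosb in KO at 4 h, where all 4 livers had 0 counts and there was no spread to judge.

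The KO liver of replicate 2 at 8 h stood apart for 2 genes, with Jun at 33.0 CPM against 10.2 to 11.4 in the other 3, and with Atf3 at 5.40 CPM against 1.63 to 1.98. It also held 14 of the 88 Fosb counts of the series. The KO liver of replicate 1 at 20 h was high for Fosl2, at 26.0 CPM against 13.1 to 14.4, and is among the 3 livers with most Saa1 (29715 counts). Of the low ones, the WT liver of replicate 2 at 8 h had Fosl2 at 3.06 CPM against 5.99 to 6.34. The KO liver of replicate 1 at 0 h had Atf3 at 0.600 CPM against 1.56 to 1.75. Fosb at 0 CPM in the KO liver of replicate 3 at 20 h is 0 counts against 1 in each of the other 3.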

How the results depend on the processing

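The KO minus WT difference over times kept its sign for all 6 tested members, staying within −2.36 to −1.86 for Fos, −1.39 to −1.02 for Jun, −1.37 to −0.91 for Junb, −1.10 to −0.31 for Jund, −0.34 to −0.03 for Fosl2 and −0.30 to −0.08 for Atf3 over 56 alternatives. The differences at single times were refitted with the GC slope alone, which turned the sign at 16 h for Fos (−0.06 to 0.15), Junb (−0.04 to 0.36) and Jund (−0.67 to 0.23) and at 12 h for Atf3 (0.01 to −0.01). Genes called in that contrast numbered 191, 356 by DESeq2, 122 with no filter on low counts, 303 without the 3 libraries rich in Star, Cela2a or Lepr, and 99 to 484 with 1 library left out; the cause was not tested. With the couple of the same time and replicate number as a block there were 127. The block of replicate number within a genotype ended the calls for Fos in WT, for time (adjusted p = 0.0849) and rhythm (0.0550). It changed no other time or rhythm call of a member.

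The time effect in KO was called for 2 members, for 1 without those 3 libraries, without the 3 with most Saa1 or with both 16 h groups left out, and for 1 to 3 with 1 library left out. The call lost in the first 3 was Atf3 (adjusted p = 0.0556, 0.0740 and 0.0525). The rhythm in KO was called for 1 to 3 with 1 library left out. Fos lost its time effect in WT in 11 alternatives and its rhythm in 4 of 56. The 14 correlated pairs were 8 by Spearman's rho, 9 without the 3 libraries, 6 without the 16 h groups, 3 with the GC slope removed and 6 to 15 with 1 library left out, where the first setting changes the measure and the next 2 use fewer samples. Fosb had 88 counts in all, and with no filter its adjusted p for time and rhythm lay between 0.213 and 0.274.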
